A study of Homo sapiens with 6 samples.

Results

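The CEACAM family is described here through 8 genes of chromosome band 19q13 chosen by name from a table of 58884 genes: CEACAM1, CEACAM3, CEACAM4, CEACAM5, CEACAM6, CEACAM8, CEACAM19 and CEACAM21. CEACAM6 had been picked because its RNA was far lower in EZH2 shRNA cells than in control shRNA cells, and the other members were set beside it as its neighbours and near copies. Values of the 8 members in that contrast are therefore given as a description, with no p-value. The data are read counts from 6 polyadenylated RNA libraries of HL-60, a RAS-mutated leukaemia line of promyelocyte-like cells. In 3 libraries, numbered 1, 3 and 4 in their titles, the cells carried a stable lentiviral short hairpin RNA (shRNA) against EZH2, the histone methyltransferase of Polycomb repressive complex PRC2. In the other 3, numbered 3, 4 and 5, they carried a scrambled control shRNA in a matching vector. Both groups had been selected with puromycin, which was removed 2 days beforehand, and both spent 24 hours in 0.05% fetal bovine serum before lysis. The series text speaks of 3 cell lines a group and of a knock-out, while the sample labels speak of a knockdown. The sources used here do not name the hairpin or its promoter, nor say whether the libraries came from separate transductions, so a p-value here reflects variation among libraries that could be technical only.

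Carcinoembryonic antigen-related cell adhesion molecules are immunoglobulin-type surface glycoproteins that bind each other between neighbouring cells. CEACAM5, CEACAM6 and CEACAM8 are held in the membrane by a glycosylphosphatidylinositol (GPI) lipid anchor, whereas CEACAM1, CEACAM3 and CEACAM4 cross it and signal through tyrosine motifs in their tails, which inhibit in CEACAM1 and activate in CEACAM3. Neutrophils and their precursors display CEACAM1, CEACAM3, CEACAM6 and CEACAM8 as the CD66 antigens, and CEACAM6 and CEACAM8 are stored in their granules.

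EZH2 mRNA, the target of the hairpin, stood at 79.98 ± 3.01 CPM in EZH2 shRNA libraries and 149.5 ± 1.61 CPM in control libraries (SD, n = 3 each; log2 fold change -0.90, edgeR adjusted p = 3.22e-11). CPM are counts scaled to the library total with TMM factors. Library totals lay between 50809853 and 85074624 counts in the EZH2 shRNA group and between 39717343 and 51622861 in the control group, so a count of 0 allows up to 3 counts, or 0.0353 to 0.0759 CPM, per library. Myeloperoxidase (MPO), the main promyelocyte enzyme, was abundant in both groups, at 9416 CPM in EZH2 shRNA and 9795 CPM in control libraries on average. Intervals and floors cover counting error only.

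The members are close copies, and a read here was 50 bases long. The first 120 coding bases of CEACAM6 and of its 4 closest copies are given 5′ to 3′ from the GENCODE release 44 transcripts on GRCh38, all from chromosome 19. They encode the signal peptide and the start of the mature protein. Capitals mark bases that differ from CEACAM6 at the same position, compared without gaps.
CEACAM6: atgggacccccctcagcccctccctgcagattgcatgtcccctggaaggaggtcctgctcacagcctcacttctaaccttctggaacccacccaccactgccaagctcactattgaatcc
CEACAM5: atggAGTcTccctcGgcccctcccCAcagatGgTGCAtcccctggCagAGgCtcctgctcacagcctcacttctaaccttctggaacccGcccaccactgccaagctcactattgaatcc
CEACAM8: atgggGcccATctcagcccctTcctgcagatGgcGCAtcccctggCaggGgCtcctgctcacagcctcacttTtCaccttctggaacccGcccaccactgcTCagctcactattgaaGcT
CEACAM3: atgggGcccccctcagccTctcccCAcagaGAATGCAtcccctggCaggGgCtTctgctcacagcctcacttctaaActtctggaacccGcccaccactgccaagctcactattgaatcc
CEACAM1: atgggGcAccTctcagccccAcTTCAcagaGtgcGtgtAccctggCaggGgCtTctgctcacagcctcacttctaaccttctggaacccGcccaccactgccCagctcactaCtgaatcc
In this stretch CEACAM5 and CEACAM3 each differed from CEACAM6 at 17 of 120 bases, and CEACAM8 and CEACAM1 at 18. CEACAM4 differed at 22, CEACAM21 at 26 and the distant CEACAM19 at 85. Over gapped alignments of whole coding sequences, identity to CEACAM6 was 90.9% for CEACAM5, 89.2% for CEACAM1, 87.2% for CEACAM8, 83.9% for CEACAM3 and 76.9% for CEACAM4. CEACAM19 at 72.4% and CEACAM21 at 71.1% were the least similar.

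Most 50-base stretches of the members were nevertheless unique. Of 2907 distinct 50-base windows in CEACAM6 transcripts, 122 (4.20%) also occurred in another member, in CEACAM5 for 40, CEACAM1 for 35, CEACAM3 for 31 and CEACAM8 for 29. A further source of ambiguity is the readthrough gene AC243967.1, which lies on the same strand and joins CEACAM5 to CEACAM6. It held 101 CEACAM6 windows, and with all other genes 210 windows (7.22%) were not unique. AC243967.1 itself had 0 counts in every library. In CEACAM8 57 of 2548 windows (2.24%) were shared within the family, in CEACAM3 133 of 3163 (4.20%), and in CEACAM19 0 of 5445. The longest identical coding run between CEACAM6 and CEACAM8 is shown because it exceeds a read: 78 bases, from base 433 to base 510 of the CEACAM6 coding sequence counted from its ATG.
CEACAM6 and CEACAM8: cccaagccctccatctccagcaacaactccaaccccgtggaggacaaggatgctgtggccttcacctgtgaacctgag
Which program counted reads, and how it treated reads with several matches, is not given in the sources used here.

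**Figure D1:**
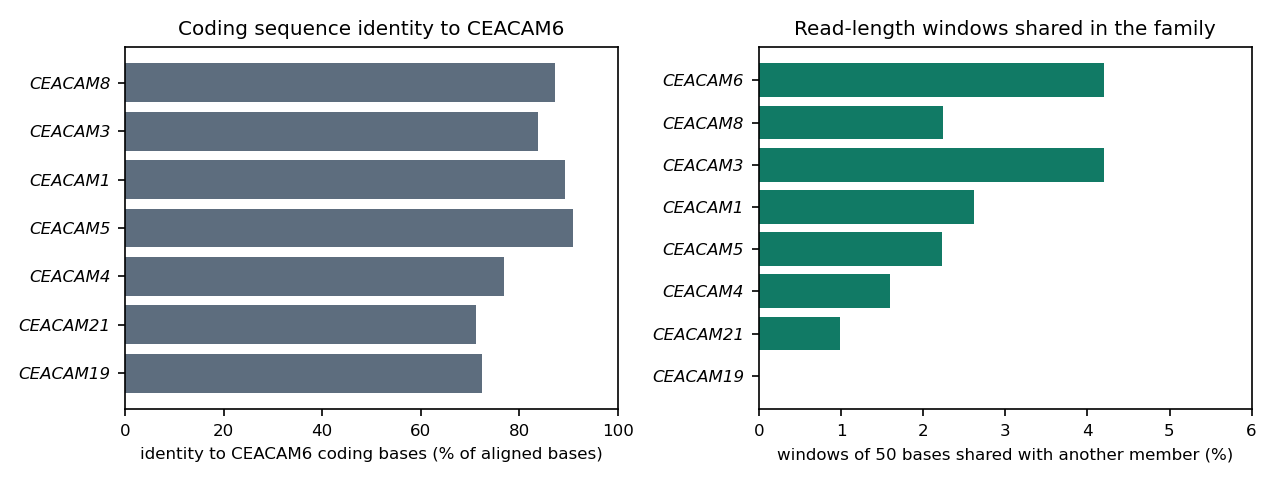
Left, percent of aligned coding bases identical to CEACAM6 for the other 7 members. Right, percent of each gene's 50-base transcript windows that also occur in another member, from 4.20% for CEACAM6 down to 0 for CEACAM19.

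Among the granulocyte adhesion genes, CEACAM6 (ENSG00000086548; GRCh38 chromosome 19, 41750977 to 41772211, plus strand) carried nearly all family reads in control cells and few in EZH2 shRNA cells. It had 7, 19 and 6 counts in EZH2 shRNA libraries 1, 3 and 4, against 324, 397 and 383 counts in control libraries 3, 4 and 5. The groups were far apart, and within the EZH2 shRNA group library 3 was highest. As CPM these were 0.141, 0.355 and 0.0707 in EZH2 shRNA libraries and 8.20, 7.62 and 9.03 in control libraries, with means of 0.189 ± 0.148 and 8.28 ± 0.708 CPM (SD, n = 3 each). The fitted log2 fold change, EZH2 shRNA over control, was -5.57 (SE 0.28), or 47.5-fold lower. The log2 fold change was -6.40 without EZH2 shRNA library 3 and -5.03 without EZH2 shRNA library 4. On the deposited length-scaled values (FPKM) CEACAM6 was at 0.0471, 0.119 and 0.0237 in EZH2 shRNA libraries and 2.77, 2.57 and 3.04 in control libraries. With 1 added to FPKM before taking logs the difference was -1.83, which understates a change that ends near 0. In bulk RNA, fewer cells with the transcript and less transcript per cell cannot be told apart.

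CEACAM8 (chromosome 19, 42580243 to 42595055, minus strand), the CD66b marker of granulocytes, had 0 counts in all 3 EZH2 shRNA libraries, against 7, 10 and 5 counts in control libraries 3, 4 and 5. No EZH2 shRNA library reached a control library, although the control level was only 0.162 ± 0.0392 CPM (SD, n = 3). With the floor of 3 counts taken over the EZH2 shRNA group, and the control counts taken as exact, CEACAM8 came out 10.3-fold lower there. The 95% exact counting limit of the ratio, which counts the error of both groups, lay at 7.69-fold lower. CEACAM3 (41796587 to 41811554, plus strand), a neutrophil receptor that takes up bacteria, likewise had 0 counts in the EZH2 shRNA libraries, against 1, 6 and 7 counts in the control libraries. By the same floor CEACAM3 came out 6.55-fold lower in EZH2 shRNA cells, and 4.66-fold lower at the exact counting limit. Control library 3, with its single count, was barely apart from the EZH2 shRNA libraries.

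CEACAM1 (42507304 to 42561234, minus strand), the inhibitory member, was near the limit of detection, with 0 counts in all EZH2 shRNA libraries and 1, 0 and 3 counts in control libraries 3, 4 and 5. Its groups overlapped at 0, and with 4 control counts in all the exact counting limit of the ratio, EZH2 shRNA over control, was 1.08, so no difference was detectable at this depth. CEACAM5 (41708585 to 41729798, plus strand), the carcinoembryonic antigen of gut epithelium, had 0, 6 and 0 counts in EZH2 shRNA libraries 1, 3 and 4, against 3, 1 and 4 counts in control libraries. The ratio of summed counts, EZH2 shRNA over control, was 0.534, with a 95% exact counting interval of 0.153 to 1.76. All 6 counts came from library 3, the EZH2 shRNA library that also had the most CEACAM6.

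CEACAM4 (41618971 to 41627074, minus strand), a phagocyte receptor, had 2, 0 and 0 counts in EZH2 shRNA libraries and 4, 0 and 0 counts in control libraries. CEACAM21 (41549518 to 41586844, plus strand) had 4, 3 and 7 counts in EZH2 shRNA libraries, against 6, 2 and 2 counts in control libraries. Its summed counts gave a ratio of 0.997 (95% exact counting interval 0.412 to 2.51), and that of CEACAM4 was 0.356 (0.0322 to 2.48). At these levels no difference was detectable for either gene, and neither interval shows that the groups are alike.

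CEACAM19 (44662278 to 44684359, plus strand), which lies apart from the others in a more distal cluster, went the opposite way. It had 63, 58 and 77 counts in EZH2 shRNA libraries 1, 3 and 4, against 23, 26 and 15 counts in control libraries 3, 4 and 5. The lowest EZH2 shRNA library, at 0.907 CPM, was above the highest control library, at 0.582 CPM. Means were 1.08 ± 0.179 CPM in EZH2 shRNA and 0.478 ± 0.116 CPM in control libraries (SD, n = 3 each), a log2 fold change of 1.16 (SE 0.27). The PVR gene, for the poliovirus receptor, overlaps CEACAM19 by 3885 bases on the same strand and shares 73 of its windows. PVR was at 22.4 ± 0.657 CPM in EZH2 shRNA and 23.1 ± 0.931 CPM in control libraries, a log2 fold change of -0.04 that did not pass (edgeR adjusted p = 0.579).

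**Figure D2:**
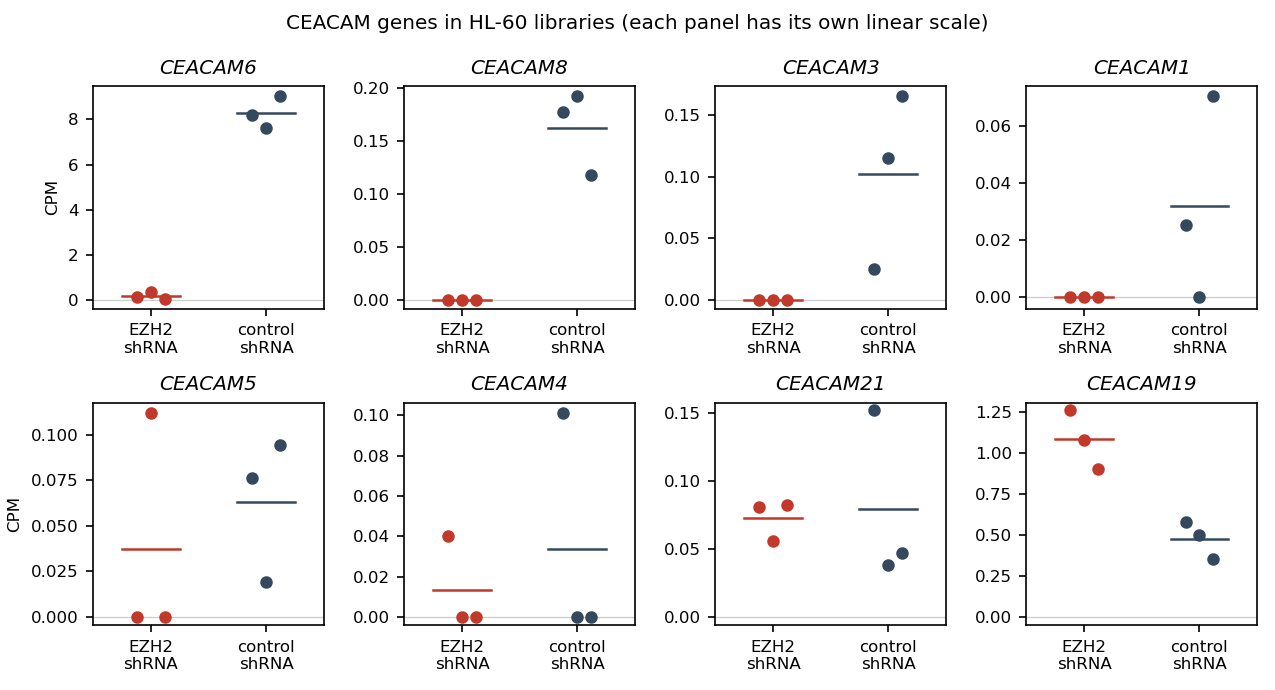
CPM of the 8 members in the 3 EZH2 shRNA libraries (left in each panel) and the 3 control shRNA libraries (right), with a bar at each mean. CEACAM6 lay between 0.0707 and 0.355 CPM in EZH2 shRNA libraries and between 7.62 and 9.03 CPM in control libraries, and CEACAM19 between 0.907 and 1.27 against 0.354 and 0.582 CPM.

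The order of levels per length differed between the groups. In EZH2 shRNA cells mean FPKM was highest for CEACAM19 at 0.207, then CEACAM6 at 0.0634, CEACAM21 at 0.0366, CEACAM5 at 0.0111 and CEACAM4 at 0.00972, with CEACAM8, CEACAM3 and CEACAM1 listed at 0. In control cells CEACAM6 led at 2.79, followed by CEACAM19 at 0.0917, CEACAM8 at 0.0635, CEACAM21 at 0.0400, CEACAM3 at 0.0346, CEACAM4 at 0.0247, CEACAM5 at 0.0188 and CEACAM1 at 0.00581. Neighbours in these orders overlapped between their libraries, except CEACAM19 and CEACAM6, which were apart in both groups. CEACAM6 made up between 6.67% and 22.1% of the family's counts in EZH2 shRNA libraries and between 87.8% and 91.4% in control libraries.

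Counts of the near copies were also set against CEACAM6 itself, since reads of CEACAM6 assigned to a copy would keep a fixed ratio to it. Per 100 CEACAM6 counts CEACAM8 had 0 in EZH2 shRNA cells and 1.99 in control cells, and CEACAM3 had 0 and 1.27. At the control ratio, the 32 CEACAM6 counts of the EZH2 shRNA group would go with 0.638 counts of CEACAM8 and 0.406 of CEACAM3, so the zeros of these genes cannot be told apart from a fixed share of CEACAM6 reads. CEACAM5 had 18.8 counts per 100 CEACAM6 counts in EZH2 shRNA cells, against 0.725 in control cells, where the control ratio would give 0.232 counts and 6 were seen. That value rests on EZH2 shRNA library 3 alone: without it CEACAM5 had 0 counts beside 13 of CEACAM6. CEACAM21 had 43.8 counts per 100 in EZH2 shRNA cells and 0.906 in control cells, and it has no 50-base window in common with CEACAM6. Because CEACAM6 was picked for its fall, any gene that did not fall with it rises on this scale. Nothing is therefore read from the rises of CEACAM5 and CEACAM21.

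Only 2 of the 8 members, CEACAM6 and CEACAM19, passed the expression filter. By edgeR's quasi-likelihood test, with Benjamini-Hochberg adjustment at 0.05 over 16859 genes, 1 was called lower and 1 higher, where 22.9% of all genes tested were called lower, 23.8% higher and 46.7% in either direction. CEACAM6 was picked for this contrast, so nothing is read from that count. Counting unfiltered members too, every EZH2 shRNA library was below every control library for 3 of 8 (CEACAM3, CEACAM6 and CEACAM8) and above for 1 (CEACAM19). Of all tested genes 27% were below in this sense, 27.9% above and 54.9% either. Those shares cover only genes past the filter, which CEACAM3 and CEACAM8 did not pass. The 16 other rows named CEACAM in the table, among them CEACAM7, CEACAM16, CEACAM18, CEACAM20 and pseudogenes, had 0 counts in every library. Of 12 rows for the related pregnancy-specific glycoproteins, PSG2 alone had counts, 0, 1 and 0 in EZH2 shRNA and 1, 0 and 0 in control libraries.

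The CpG content of promoters is a feature by which PRC2 targets are known to differ. The promoters of CEACAM6, CEACAM8 and CEACAM3, whose counts were lower in every EZH2 shRNA library than in any control library, are therefore shown. The promoter of CEACAM5, the closest copy of CEACAM6, is shown beside them. Each is 300 bases, from 250 bases before the start to 50 from it, from RefSeq on GRCh38.p14, 5′ to 3′ on the gene's strand. That start is the RefSeq one, which equals the start of the gene span given above for CEACAM3 but not for the other 3. For CEACAM6 the whole window lies inside the gene span, which begins at 41750977. CEACAM6 is at chr19:41755280-41755579, CEACAM8 at chr19:42594875-42595174, CEACAM3 at chr19:41796337-41796636 and CEACAM5 at chr19:41708376-41708675. Capitals mark matches on either strand to CACGTG (the E-box), GGGCGG (the GC box), GAGGAA (which holds the GGAA core of ETS factors such as PU.1) or TATAAA (the TATA box).
CEACAM6: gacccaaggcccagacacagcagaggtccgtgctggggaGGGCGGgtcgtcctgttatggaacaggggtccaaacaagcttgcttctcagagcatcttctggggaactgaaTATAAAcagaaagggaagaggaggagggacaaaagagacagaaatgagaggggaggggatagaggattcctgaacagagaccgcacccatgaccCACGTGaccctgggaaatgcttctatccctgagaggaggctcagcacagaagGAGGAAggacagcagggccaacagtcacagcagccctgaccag
CEACAM8: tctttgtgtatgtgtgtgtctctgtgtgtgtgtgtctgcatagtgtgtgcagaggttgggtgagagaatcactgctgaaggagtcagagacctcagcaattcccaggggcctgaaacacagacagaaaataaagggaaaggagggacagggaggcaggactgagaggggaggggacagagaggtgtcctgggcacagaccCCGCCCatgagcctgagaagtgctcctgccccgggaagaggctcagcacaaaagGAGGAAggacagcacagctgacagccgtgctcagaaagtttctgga
CEACAM3: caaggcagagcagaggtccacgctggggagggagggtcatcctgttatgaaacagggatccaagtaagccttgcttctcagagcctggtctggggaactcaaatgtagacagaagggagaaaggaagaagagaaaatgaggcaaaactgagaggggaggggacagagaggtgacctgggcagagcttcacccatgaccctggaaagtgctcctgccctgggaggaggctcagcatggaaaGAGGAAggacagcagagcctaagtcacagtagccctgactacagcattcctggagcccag
CEACAM5: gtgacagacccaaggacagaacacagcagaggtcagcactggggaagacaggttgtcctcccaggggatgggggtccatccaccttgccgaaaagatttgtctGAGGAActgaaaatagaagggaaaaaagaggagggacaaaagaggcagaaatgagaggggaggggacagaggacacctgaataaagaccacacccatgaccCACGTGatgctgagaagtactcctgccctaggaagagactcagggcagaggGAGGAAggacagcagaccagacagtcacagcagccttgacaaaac
The CpG dinucleotide occurred 5 times in the CEACAM6 promoter, 3 times in that of CEACAM8, 1 time in that of CEACAM3 and 2 times in that of CEACAM5, against a median of 14 over 35116 promoters in the same table. Promoters with as few as CEACAM6 made up 33.7% of all, and with as few as CEACAM3 11.0%. All 8 entries, for 7 members (CEACAM21 has 2 and CEACAM19 was not matched), held GAGGAA, which 27.9% of all promoters hold. In CEACAM6, CEACAM8, CEACAM3 and CEACAM5 a match is followed by the same bases, ggacagca, so matches in these near copies are not independent. CEACAM6 and CEACAM5 held the E-box, found in 7.26% of all promoters, and CEACAM6 alone of the 8 held TATAAA, found in 11.5%. The GC box was in the promoters of CEACAM6, CEACAM8, CEACAM1 and CEACAM21, against 45.0% of all. A match is a run of letters, not a binding site.

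On the chromosome, most genes around CEACAM6 that passed the filter differed by less than 1 on the log2 scale. Within 1 Mb of CEACAM6, members left out, 41 of 106 genes passed the filter, of which 15 rose, 6 fell and 20 did not pass (36.6% higher and 14.6% lower, edgeR adjusted p under 0.05). Their median log2 fold change was 0.16, against 0.07 over 1040 genes of chromosome 19 and 0.01 over all 16859 genes, of which 30.6% and 23.8% were higher and 17.2% and 22.9% lower. With the chromosome 19 median removed in each library 11 neighbours were higher and 7 lower. Of the 41 genes 4 changed by at least 1 on the log2 scale.

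The exception beside CEACAM6 was AC243967.2 (41757898 to 41786893, minus strand), a non-coding gene that overlaps it on the other strand. AC243967.2 had 1, 0 and 2 counts in EZH2 shRNA libraries, against 19, 32 and 17 counts in control libraries. It fell by 4.80 on the log2 scale (SE 0.60). AC243967.2 passed the filter only through its control counts and overlaps the gene picked for its fall. Its values are therefore a description, with no p-value. Every control library was above every EZH2 shRNA library. In GENCODE release 44 its 567 exon bases share 0 bases with the exons of CEACAM6, though the annotation behind the counts may differ from that release. The genes overlap over 14314 bases, and whether unspliced CEACAM6 reads entered the AC243967.2 counts was not tested. Adding its counts to those of CEACAM6 gave a log2 fold change of -5.53.

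The nearest measured genes upstream of CEACAM6 were PLEKHA3P1, AC243960.2 and DMAC2, at -229, -244 and -310 kb from it. No gene between PLEKHA3P1 and CEACAM6 passed the filter. Downstream of the overlapping AC243967.2 the nearest measured gene, HNRNPA1P52, lay at 57.5 kb. The pseudogenes PLEKHA3P1 (log2 fold change -0.45, edgeR adjusted p = 0.136) and AC243960.2 (-0.07, 0.517) did not pass the threshold. DMAC2, a mitochondrial complex I assembly gene, was at 0.10 (SE 0.04, edgeR adjusted p = 0.0456), and most alternatives ended that call, with adjusted p between 0.0163 and 0.512. Downstream, RPS19, a small ribosomal subunit protein, rose to 2158 ± 103 CPM in EZH2 shRNA libraries, against 1707 ± 30.8 CPM in control libraries (SD, n = 3 each; log2 fold change 0.34, SE 0.05, edgeR adjusted p = 1.73e-05). The pseudogene HNRNPA1P52 was at -0.07 (edgeR adjusted p = 0.737) and CD79A, a B cell receptor chain, at 0.70 (0.0670), neither past the threshold. Further off, the pseudogene CYP2B7P rose by 2.01 and TMEM145, a membrane protein gene, by 1.26, while B3GNT8, a glycosyltransferase gene, fell by 1.02 (edgeR adjusted p = 8.87e-06, 1.77e-06 and 0.000916).

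**Figure D3:**
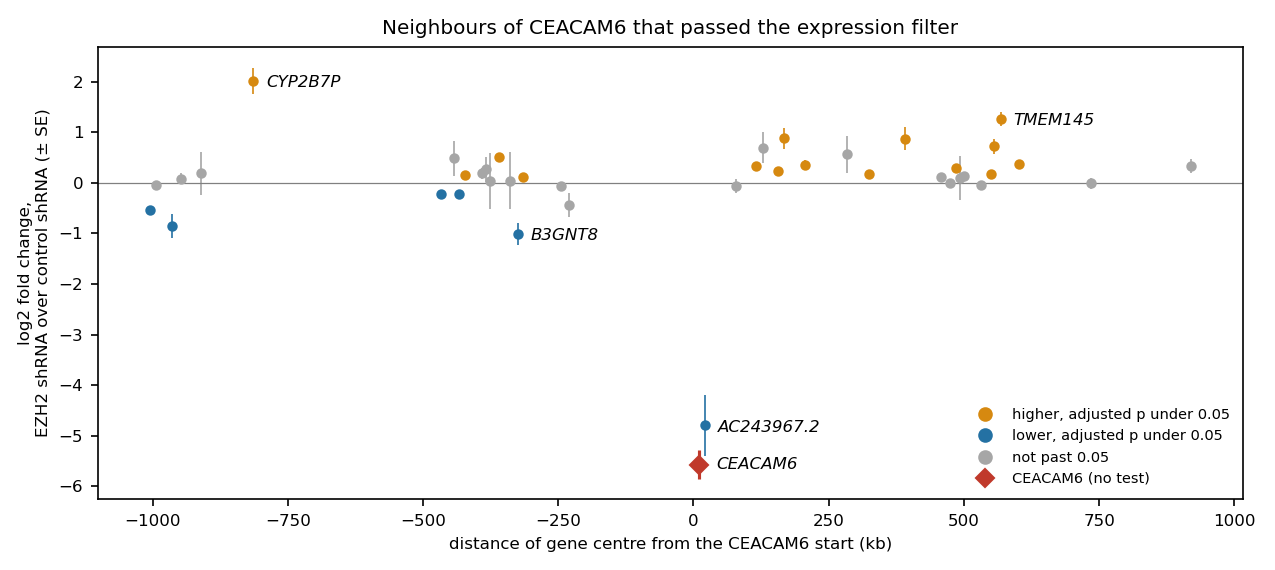
Log2 fold change, EZH2 shRNA over control shRNA, with its SE, for 41 neighbours of CEACAM6 by the distance of their centre from its start in kb, with CEACAM6 as a diamond. CEACAM6 at -5.57 and the overlapping AC243967.2 at -4.80 stand below all others, which lie between -1.02 and 2.01.

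By profile over the 6 libraries (log2 CPM centred on each gene's mean, Euclidean distance, 13418 genes with a mean of at least 1 CPM), the genes most like CEACAM6 were SLC22A16, a carnitine transporter on chromosome 6 (distance 1.66, Pearson r = 0.969), OASL, an interferon-induced gene on chromosome 12 (1.81, r = 0.976), GTF2IRD1 on chromosome 7 (1.99, r = 0.956), PXMP4, a peroxisomal membrane gene on chromosome 20 (2.09, r = 0.982), and ZFP28, a zinc finger gene (2.26, r = 0.973). These r describe 6 libraries in 2 groups and mostly restate the gap between the groups. ZFP28 is on chromosome 19 too, but starts at 56538948. ZFP28 had 3, 5 and 9 counts in EZH2 shRNA libraries and 74, 112 and 75 counts in control libraries.

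Genes that bind or signal for CEACAM proteins moved in both directions. Of 22 measured partner and signalling genes 5 rose, 11 fell and 6 did not pass (median -0.12, against 0.01 over all genes). The shares were 22.7% higher and 50% lower, against 23.8% and 22.9% of all genes tested. FYN, a Src family kinase, fell to 18.7 ± 0.244 CPM in EZH2 shRNA libraries, against 43.1 ± 1.06 CPM in control libraries (SD, n = 3 each; log2 fold change -1.21, SE 0.05, edgeR adjusted p = 1.79e-11). RAC2, a neutrophil GTPase that acts below CEACAM3, was at -0.30 (edgeR adjusted p = 1.49e-05). CTNNB1, the beta-catenin gene, and CALM3, a gene for calmodulin, which binds the CEACAM1 tail, rose by 0.38 and 0.30 (4.14e-07 and 8.19e-06). The phosphatase PTPN6, which binds the inhibitory motifs of CEACAM1, was at -0.03 (0.511). PTPN11, another phosphatase of this list, was lower, at -0.23 (9.998e-05). The galectin LGALS3 had 0 counts.

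The machinery that attaches GPI anchors was measured for 27 of 28 genes, of which 7 rose, 9 fell and 11 did not pass (median -0.05). That is 25.9% higher and 33.3% lower, against 23.8% and 22.9% of all genes tested. PGAP1, which trims the anchor after attachment, fell to 8.47 ± 0.501 CPM in EZH2 shRNA libraries, against 18.7 ± 1.19 CPM in control libraries (SD, n = 3 each; log2 fold change -1.14, edgeR adjusted p = 4.04e-09). GPAA1, a subunit of the transamidase that joins anchor and protein, was at -0.41 (9.73e-07), the mannosyltransferase PIGM at -0.32 (0.000131) and the remodelling enzyme PGAP3 at 0.66 (2.54e-06). The number of rises depended on the setting and lay between 3 and 9 over the alternatives, with 3 by DESeq2, 3 without EZH2 shRNA library 3 and 4 without control library 3 or 4.

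Of 14 measured genes for other GPI-anchored leukocyte proteins 8 rose, 3 fell and 3 did not pass (median 0.31), or 57.1% higher and 21.4% lower, against 23.8% and 22.9% of all genes tested. CD48, a ligand of natural killer cell receptors, rose to 43.5 ± 3.08 CPM in EZH2 shRNA libraries, against 19.8 ± 1.35 CPM in control libraries (SD, n = 3 each; log2 fold change 1.13, edgeR adjusted p = 5.4e-10). The complement regulator CD55 rose by 0.94, the adhesion gene CD58 by 0.83 and LY6E by 0.50 (5.83e-09, 9.08e-09 and 1.52e-07). CD177, a neutrophil surface protein also encoded at 19q13, and ALPL, ART4, RAET1G and ULBP2 had 0 counts in every library.

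Of 24 genes of later granulocytes 9 were measured, 7 had counts below the filter and 8 had 0 counts, among them CD177, LCN2, MMP8, CRISP3 and OLFM4, which share granules or maturation stage with CEACAM8. Of the 9 measured 1 rose (11.1%, against 23.8% of all genes) and 4 fell (44.4%, against 22.9%), with a median of -0.01. ITGB2, the beta chain of the neutrophil integrins, fell to 139.2 ± 2.38 CPM in EZH2 shRNA libraries, against 207.0 ± 5.41 CPM in control libraries (SD, n = 3 each; log2 fold change -0.57, edgeR adjusted p = 4.06e-09), and CEBPE, a factor of granule genes, rose by 0.38 (6.13e-07). CEBPD at -1.24 (0.0201) lost its call without EZH2 shRNA library 1 (0.0882) or 3 (0.108), and its adjusted p lay between 2.72e-09 and 0.108 over all alternatives. MNDA at -0.64 (0.0155) lost its call without EZH2 shRNA library 4 (0.0509) or control library 3 (0.0710), and its adjusted p lay between 0.00792 and 0.071 over all alternatives. Without EZH2 shRNA library 3, or without control library 3, 2 genes of this list fell.

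Markers of HL-60's own stage and of other cells were set beside these values. Of 8 promyelocyte markers 7 were measured, and ELANE had counts below the filter. Of the 7, 3 rose and 1 fell, while MPO, CD33 and SRGN did not pass. PRTN3 was at 2.14, AZU1 at 0.69, RNASE2 at 0.56 and CTSG at -0.22 (edgeR adjusted p = 1.55e-08, 1.93e-08, 3.11e-09 and 0.000305). RNASE2 is a gene of eosinophil granules too, so its rise cannot be assigned to promyelocyte identity. All 5 measured of 7 eosinophil markers rose, while CCR3 and SIGLEC8 had counts below the filter. IL5RA was at 6.39, CLC at 6.33, EPX at 4.21 and PRG2 at 2.10 (edgeR adjusted p = 3.92e-15, 7.02e-14, 2.65e-14 and 1.57e-11). The list summed to 137.9 to 154.9 CPM in EZH2 shRNA libraries, against 5.87 to 6.46 CPM in control libraries. CLC alone was at 86.5 CPM in EZH2 shRNA and 1.08 CPM in control libraries on average. Epithelial markers, which would go with CEACAM5, summed to 2.43 to 3.37 CPM in EZH2 shRNA libraries and 0.966 to 1.34 CPM in control libraries, with EPCAM, CDH1, CLDN3, KRT19 and KRT20 at 0 and KRT8 the 1 measured of 9 (log2 fold change 1.32, edgeR adjusted p = 3.72e-05). Lymphoid markers summed to 15.6 to 16.3 CPM in EZH2 shRNA and 13.5 to 14.6 CPM in control libraries. Nearly all of that was NKG7, at 15.1 CPM in EZH2 shRNA and 13.6 CPM in control libraries on average. NKG7 and CD79A were the 2 of 8 measured, with 0 past the threshold, and CD3G, CD79B and MS4A1 were at 0 counts. Erythroid and megakaryocytic markers summed to 0.577 to 0.784 CPM in EZH2 shRNA and 0.141 to 0.307 CPM in control libraries, with ITGA2B the 1 measured of 9 (1.41, edgeR adjusted p = 0.00443) and the globin genes HBB, HBA2, HBG1 and HBG2 at 0. The part of these markers in the CEACAM values was not tested.

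**Figure D4:**
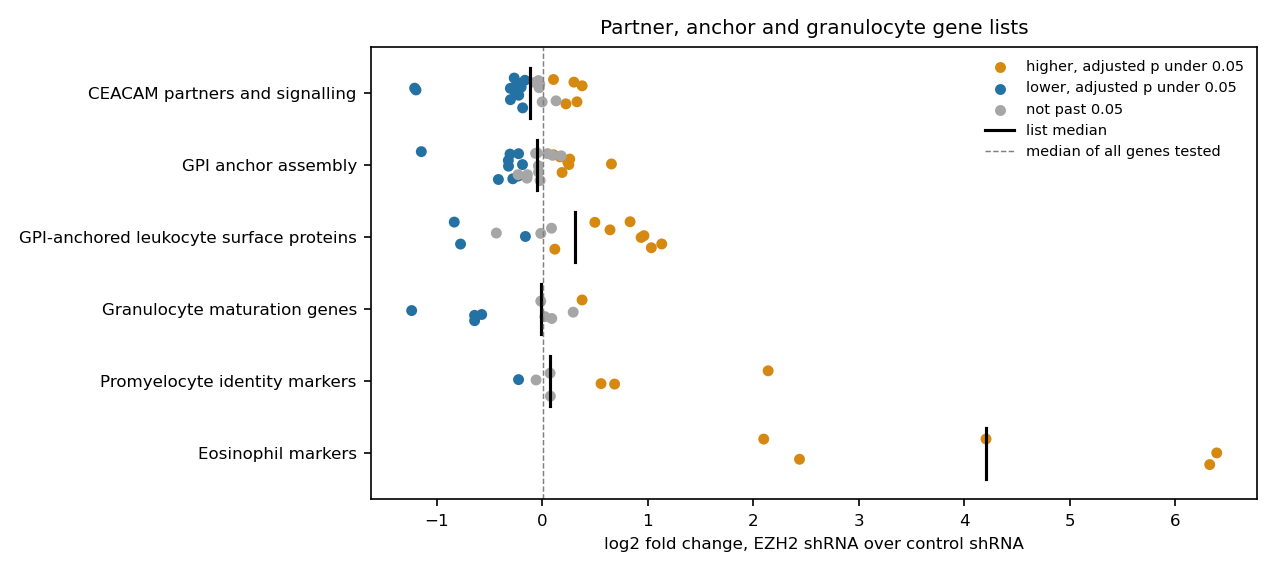
Log2 fold change, EZH2 shRNA over control shRNA, of each measured gene in 6 lists (points, coloured by edgeR adjusted p and direction), with list medians as black bars and the median of all 16859 genes as a dashed line. Medians lie between -0.12 and 0.31 except that of the eosinophil markers, at 4.21.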

How the data were processed

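The authors deposited raw counts, whole reads per gene, and FPKM values, for 1 column per library. Per the submitters' processing notes, STAR 2.5.2b, Picard 2.18.24, R 3.6.1 and DESeq2 1.24.0 were used with build GRCh38 (hg38), with no role stated. The kit keeps strand, per the labels' protocols, but whether counting used it is not given in the sources used here, so antisense genes are uncertain.

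From the counts, CPM with TMM factors, fold changes and tests were computed here with edgeR 4.0.16 in R 4.3.3 (quasi-likelihood, robust, group only, filterByExpr defaults, Benjamini-Hochberg over 16859 genes, threshold 0.05). "Measured" means past that filter. Alternatives used DESeq2 1.42.0 and limma 3.58.1 on log2(FPKM + 1) and log2(FPKM + 0.1). A floor of 3 counts stands for 0. Sequence windows and gapped alignments used GENCODE 44 and Biopython 1.88. The scripts were tested on simulated data. Replicate libraries differed by more than sampling noise (chi-square per degree of freedom 3.18 to 17.6).

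The members and lists were chosen with earlier results of these data known. Named were EZH2, the members, family rows with counts, the 3 nearest measured neighbours on each side, neighbours that changed by at least 1 (log2), the gene overlapping CEACAM6 on the other strand, up to 4 genes of smallest p per list and the 5 nearest profiles. Other genes are named without having been picked by that rule, as zeros or for their known role.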

Additional observations from a re-analysis of the deposited data

How the results depend on the processing

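EZH2 kept its direction and its side of the threshold under the alternatives run, from -0.95 to -0.87 on the log2 scale. CEACAM6, picked for its fall in this contrast, lay between -6.40 and -1.83. The count of members called lower was 3 with no expression filter and 2 with unfiltered log2(FPKM + 1), against 1, and the count called higher was 0 where genes had to reach 1 CPM in at least 3 libraries, which drops CEACAM19. A window of 2000 kb around CEACAM6 held 11 lower and 29 higher neighbours, as it takes in more genes (78 measured, against 41). Leaving out single libraries gave 6 to 7 lower and 11 to 16 higher neighbours. The uncalled pseudogenes HNRNPA1P52, from -0.22 to 0.0557 as single libraries were left out, and AC243960.2, from -0.14 to 0.0039, changed sign without EZH2 shRNA library 3 and control library 4, and the cause was not tested. Same-numbered libraries did not deviate together (correlations 0.0359 and 0.0122 for numbers 3 and 4), and the labels do not say that the numbers pair them. With the title number as a replicate block 17 neighbours were higher and 6 lower, CEACAM6 was at -5.40 and the gene CD79A passed (adjusted p = 0.0259, with 0.0259 to 0.274 over its alternatives). The exact counting limits of CEACAM8, CEACAM3 and CEACAM1 and the CEACAM5 ratio without EZH2 shRNA library 3 were chosen after seeing the data. Depth limits the 6 members below the filter, whose counts summed to 22 in EZH2 shRNA and 62 in control libraries.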
